A study of Homo sapiens with 33 samples.

Results

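The 10 imprinted genes H19, IGF2, KCNQ1OT1, KCNQ1, CDKN1C, PHLDA2, MEG3, PEG10, PEG3 and SNRPN were described in K562, a human leukemia cell line. They were chosen by name, as 10 of the 58293 entries of a table of gene levels in the input RNA of an EZH2 RNA immunoprecipitation (RIP-seq). All fragments inside their spans were taken from read counts of 4 K562 fractions: RNA of the cytoplasm, RNA of the nucleus, and the polyA+ and polyA- parts of nuclear RNA. These tables list 900 EZH2 RIP-seq fragments, regions whose RNA was recovered with EZH2 above IgG, and 3 of the 900 lay in a span of the 10 genes. Fragments outside this list were not analysed here, so that a gene without a listed fragment is not shown to lack binding. All 5 libraries came from wild-type K562 cells at passages 15 to 25, with 1 library per group, and the input belongs to a RIP-seq of formaldehyde-fixed cells. The authors made that RIP from nuclear lysates, and it was not established here whether the input RNA was nuclear or of whole cells. The levels below may therefore not be those of whole cells. K562 is a single long-cultured line, so that the levels describe that line and the alleles of a gene were not told apart. There was no replicate error, and every interval below covers counting error or the uncertainty of 1 estimate.

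The cells carried erythroid RNA: all 7 erythroid markers had an FPKM (sequenced fragments per kilobase of transcript, scaled to the mapped fragments of the library) of at least 1, from 14.7 for KLF1 to 218 for HBG2. Of 7 markers of other cell types, 6 were under 1 and CD14, a monocyte marker, was listed at 0. The exception was EPCAM, an epithelial adhesion protein, at 27.9 (bounds 25.0 to 30.7). The fragments received 7929 reads in the cytoplasmic library, 57985 in polyA+, 105661 in nuclear and 106051 in polyA- RNA. These sums are not the depths of the libraries, and the counts were compared as deposited.

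Imprinted genes are transcribed mainly from the allele of 1 parent, under control of regions that carry DNA methylation on 1 parental copy. KCNQ1OT1 is a long noncoding RNA that starts inside KCNQ1, runs antisense to it on the paternal copy, and is needed there to silence neighbours such as CDKN1C and PHLDA2. It is among the RNAs known to associate with PRC2, the complex whose enzyme EZH2 methylates histone H3 at lysine 27. H19 and MEG3 are noncoding RNAs of the maternal copy in the IGF2 and DLK1 clusters, while IGF2, PEG10, PEG3 and SNRPN are paternally expressed.

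All 3 fragments lay in KCNQ1OT1, and thus also in the span of KCNQ1. From the start of KCNQ1OT1 onwards they are called F1, F2 and F3. The stretches below are the most purine-rich part of each fragment. Binding of PRC2 to guanine-rich RNA is well known, but the stretches were chosen by G and A together and not by G alone. As the maximum of each fragment, they are not a test of enrichment. Each is 120 bases of GRCh38 on the minus strand, the strand of KCNQ1OT1, at chr11:2691821-2691940 for F1, chr11:2683924-2684043 for F2 and chr11:2669204-2669323 for F3. The capitals mark the 60-base window with the most G and A in the fragment.
F1: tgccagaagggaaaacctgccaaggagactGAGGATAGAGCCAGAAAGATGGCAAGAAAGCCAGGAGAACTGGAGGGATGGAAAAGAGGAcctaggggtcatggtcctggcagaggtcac
F2: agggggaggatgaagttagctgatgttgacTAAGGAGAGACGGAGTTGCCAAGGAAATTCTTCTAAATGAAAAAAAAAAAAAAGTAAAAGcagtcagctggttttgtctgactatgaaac
F3: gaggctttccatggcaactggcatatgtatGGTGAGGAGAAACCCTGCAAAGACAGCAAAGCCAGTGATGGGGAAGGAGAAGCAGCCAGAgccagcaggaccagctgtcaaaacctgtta
The windows held 50 G or A of 60 bases in F1 and 45 in both F2 and F3. The window of F2 includes an unbroken run of A.

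KCNQ1OT1 had the highest level of the 10 genes in the input RNA. Its FPKM was 1.53 with bounds of 1.44 to 1.62, and 80.9% of all entries of the table were lower. Among 14238 entries annotated as lncRNA, 94.1% were lower than KCNQ1OT1. The width of its bounds, 5.87% of the value on each side, was the smallest relative to the value among the genes with a readable level above 0. If they stand for 2 counting errors on each side, the bounds of KCNQ1OT1 are those of 1162 fragments over 91.7 kb. KCNQ1, the potassium channel gene across which it runs, had an FPKM of 0.0295 (bounds 0 to 0.710). Per length, the lower bound of KCNQ1OT1 was 2.02 times the upper bound of KCNQ1. The strand setting of the quantification is not given in the sources used here, so that intron RNA of KCNQ1 and KCNQ1OT1 cannot be told apart from these values.

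The 2 neighbours named above as silenced by KCNQ1OT1, CDKN1C and PHLDA2, were both detected. CDKN1C, an inhibitor of cyclin-dependent kinases, had an FPKM of 1.06 (bounds 0.611 to 1.50). PHLDA2, a growth-limiting protein of the placenta, had 0.657 (bounds 0.219 to 1.10). These 2 and KCNQ1OT1 were the 3 genes with a lower bound above 0, a criterion that 26.5% of all entries met. The bounds of CDKN1C reached into those of KCNQ1OT1, and those of PHLDA2 did not. The bounds of PHLDA2 are those of a count of 9.0 fragments, if they stand for 2 counting errors on each side.

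The other noncoding RNAs had levels close to that of PHLDA2. MEG3 had an FPKM of 0.679 (bounds 0 to 1.47) and H19 had 0.619 (bounds 0 to 1.42). Although their lower bounds were 0, MEG3 was higher than 87.6% and H19 higher than 86.6% of the lncRNA entries. IGF2, the growth factor gene next to H19, was listed at 0 with both bounds at 0. Since 24373 entries were listed at 0, this is given as a listing and not as a measured absence, although none of 15 housekeeping genes was at 0 and the lowest had an FPKM of 10.6.

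The genes outside chromosome 11 and chromosome 14 were low, as were KCNQ1 and the listing of IGF2 on chromosome 11. PEG10, a gene derived from a retrotransposon, had an FPKM of 0.202 (bounds 0 to 0.635). PEG3, a zinc finger protein, had 0.0486 (bounds 0 to 0.610). SNRPN, which encodes the SmN splicing protein, was given as 8.83e-93 with an upper bound of 0.390. It was 1 of 677 entries above 0 and below 1e-06, so that only its upper bound can be read. SNURF, which shares the SNRPN transcript, was listed at 0.

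**Figure D1:**
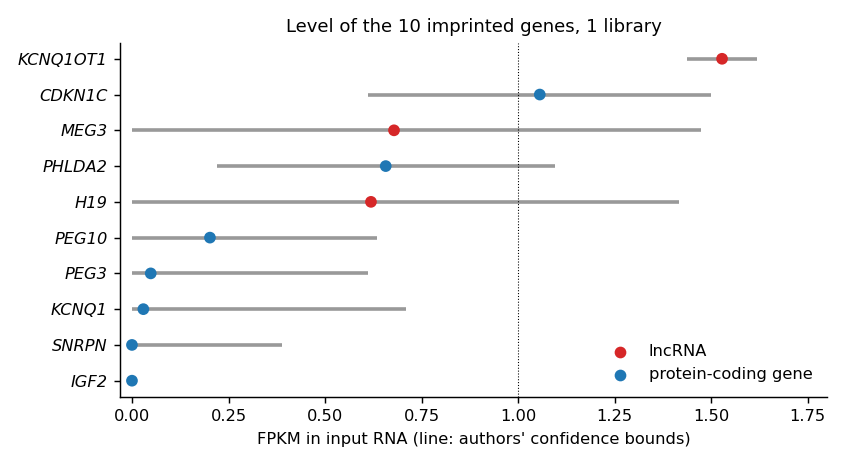
FPKM of the 10 imprinted genes in the input RNA (horizontal axis) with the authors' confidence bounds as lines; red points are lncRNAs and blue points protein-coding genes, and the dotted line marks an FPKM of 1. KCNQ1OT1 has narrow bounds of 1.44 to 1.62, whereas the bounds of 7 genes reach down to 0.

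In all, 2 of the 10 genes had an FPKM of at least 1, KCNQ1OT1 and CDKN1C, where 21.8% of all entries did. The median FPKM was 0.410 over the 10 genes and 0.0680 over all entries. In the order KCNQ1OT1, CDKN1C, MEG3, PHLDA2, H19, PEG10, PEG3, KCNQ1, SNRPN and IGF2, the bounds of all 9 pairs of neighbours overlapped. The bounds of KCNQ1OT1 overlapped those of CDKN1C and MEG3 and lay above those of the other 7 genes.

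The 3 fragments covered 8429 bases, 9.20% of the 91667 bases of KCNQ1OT1 (GRCh38 chr11:2608328-2699994). F1 was 2795 bases long (chr11:2690291-2693085) and lay 6.91 to 9.70 kb from the start of the RNA. F2 was 4033 bases long (chr11:2682775-2686807) and lay 13.2 to 17.2 kb from it. F3 was 1601 bases long (chr11:2668189-2669789) and lay 30.2 to 31.8 kb from it. No fragment was listed in the remaining part of the RNA, beyond 34.7% of its length. All 3 lay in intron 11 of the 15 introns of KCNQ1 (GENCODE 44, MANE transcript), which is 106.762 kb long, and held no KCNQ1 exon. The full-length KCNQ1OT1 is unspliced, so that the same bases are exonic in it, and 2847 bases of F2 also lay in an exon of a shorter annotated isoform. The other 8 genes, including H19, MEG3 and CDKN1C, held none of the listed fragments.

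The fragments were set against the rest of KCNQ1OT1 by composition. G and A together made up 53.2% of F1, 51.5% of F2 and 56.9% of F3 on the KCNQ1OT1 strand, compared with 55.1% over the whole RNA. Among windows of the same length along the RNA, taken every 50 bases, 37.9% had a lower share than F1, 23.5% a lower share than F2 and 53.5% a lower share than F3. The EZH2 fragments thus lay within the usual range of this RNA in their purine share. G alone was 28.4% of F1, 27% of F2 and 23.9% of F3, against 22.3% over the RNA. C was also higher, at 24.7% of F1, 24.9% of F2 and 22.0% of F3 against 21.4% over the RNA. Neither base alone was set against windows of the same length. The 32 windows of 1 kb up to the far end of F3 had a median G and A share of 51.55%, and the 59 windows beyond it 57.9%.

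**Figure D2:**
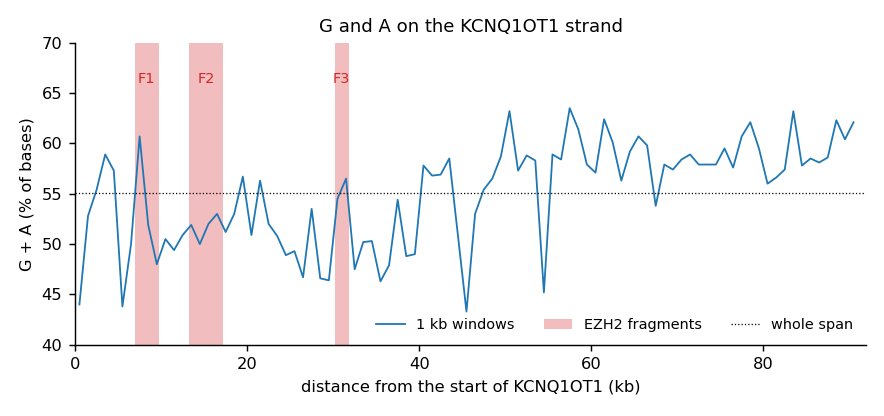
Share of G and A on the KCNQ1OT1 strand in windows of 1 kb (blue line, vertical axis in % of bases) against distance from the start of the RNA in kb; red bands are the 3 EZH2 fragments and the dotted line is the share over the whole RNA, 55.1%. The fragments lie in the first 31.8 kb, while the line runs higher in most windows further from the start.

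To ask in which fraction RNA of these fragments lies, nuclear and cytoplasmic reads were compared. The strand setting of the counting is not given either, so that the reads may come from KCNQ1OT1 or from intron 11 of KCNQ1, here and in the comparisons of polyA RNA. F1 had 80 nuclear and 0 cytoplasmic reads, F2 had 47 and 0, and F3 had 26 and 1. The nuclear count was the higher one in all 3 fragments, and the 3 together held 153 nuclear reads and a single cytoplasmic read. Set against a floor of 3 cytoplasmic reads, which is not a confidence limit, the nuclear count was 26.7 times the floor in F1, 15.7 times in F2 and 8.67 times in F3. The exact 95% lower limit of the nuclear to cytoplasmic ratio was 21.2 in F1 and 12.2 in F2. In F3 the ratio on the single cytoplasmic read was 26, with an exact 95% interval of 4.27 to 1066. An exact binomial test (two-sided) was run on all 900 fragments, and after Benjamini-Hochberg adjustment p was 5.54e-24 for F1, 3.13e-14 for F2 and 6.19e-07 for F3. All 3 were called higher in nuclear RNA, as were 88% of the 900 fragments, so that the calls do not set KCNQ1OT1 apart. Summed over the fragments, the ratio was 153 (exact 95% interval 27.1 to 6082, two-sided exact binomial p = 1.36e-44), or 51 against the floor of 3 reads.

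The test compares the reads of 2 libraries and depends on their relative depth. When libraries were divided by their reads on all listed fragments, F1 alone was called and the summed ratio against the floor was 3.83 (exact p = 0.000364). With the median ratio of all fragments set equal, no fragment was called and the summed ratio was 2.32 (exact p = 0.0161).

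**Figure D3:**
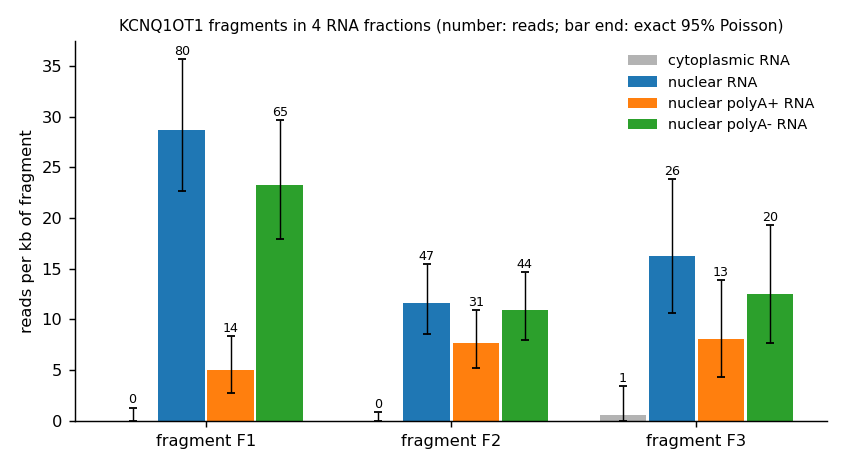
Reads per kb (vertical axis) of the 3 KCNQ1OT1 fragments in the 4 RNA fractions, with exact 95% Poisson intervals as error bars and the number of reads above each bar. Cytoplasmic reads number 0, 0 and 1, and the gap between polyA- and polyA+ RNA is wide in F1 and within the intervals in F2 and F3.

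Per length, F1 had 28.6 nuclear reads per kb, F2 had 11.7 and F3 had 16.2. The median of the 900 fragments was 27.7 reads per kb, and 51.3% of them had a lower density than F1, 20.6% a lower density than F2 and 31.0% a lower density than F3. The 3 fragments of the highest of the 10 genes were thus at or below the middle of the EZH2 fragments in nuclear reads. KCNQ1OT1 was also low among the 339 genes that host a fragment, where 12.7% had a lower FPKM and the median was 10.5.

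To ask whether this RNA is found with or without polyA, nuclear polyA- and polyA+ reads were compared. F1 had 65 polyA- and 14 polyA+ reads, F2 had 44 and 31, and F3 had 20 and 13. The polyA- count was the higher one in all 3 fragments, as in 83.4% of the 900, and the excess passed the test in F1. The ratio was 4.64 in F1 (exact 95% interval 2.58 to 8.96), 1.42 in F2 (0.876 to 2.32) and 1.54 in F3 (0.728 to 3.37). The adjusted p of the exact binomial test was 1.48e-08 for F1, 0.205 for F2 and 0.356 for F3. The call for F1 stands beside 68% of the 900 fragments called higher in polyA- RNA. Summed over the fragments, reads numbered 129 in polyA- and 58 in polyA+ RNA, a ratio of 2.22 (exact 95% interval 1.62 to 3.09, two-sided exact binomial p = 2.22e-07).

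This ratio also changed with the scaling. It was 1.22 (exact p = 0.222) with libraries divided by their sums, and 0.629 (exact p = 0.00457), lower in polyA- RNA, with the median ratio set equal, where F2 and F3 were called lower and F1 was not called. With a negative binomial test that assumes a dispersion of 0.1, the summed ratio had p = 0.104 in an exact test, while F1 was still called.

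The fragments of KCNQ1OT1 differed among themselves, in a comparison in which the depths of the libraries cancel. The polyA- share of polyA- and polyA+ reads was 82.3% in F1, the fragment nearest the start of the RNA, 58.7% in F2 and 60.6% in F3. The odds of a polyA- read were 3.27 times higher in F1 than in F2 (exact conditional 95% interval 1.48 to 7.41), with an adjusted p of 0.00436 in the two-sided Fisher's exact test over the 3 pairs. They were 3.02 times higher in F1 than in F3 (1.10 to 8.19, adjusted p = 0.0411, Fisher's exact test). F2 and F3 had an odds ratio of 0.923 with an interval of 0.363 to 2.29 (adjusted p = 1, Fisher's exact test), which leaves room for a difference in either direction. The reads come from 1 pair of libraries, so that the tests do not cover variation between cultures.

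**Figure D4:**
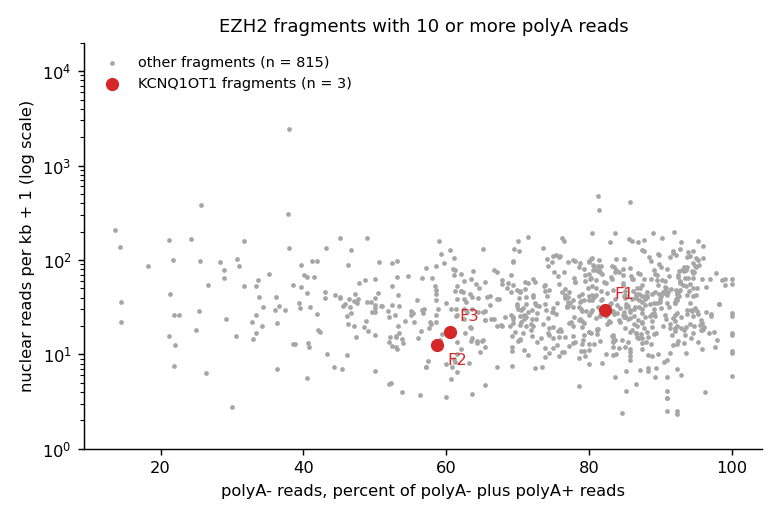
PolyA- share of polyA- and polyA+ reads (horizontal axis, %) against nuclear reads per kb plus 1 (vertical axis, log scale) for fragments with at least 10 polyA- and polyA+ reads, with 815 other fragments in grey and the 3 KCNQ1OT1 fragments in red. F1 lies amid the bulk of the fragments, and F2 and F3 lie to its left, at shares of 58.7% and 60.6%.

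Among the 818 fragments with at least 10 such reads, the median polyA- share was 78.9%. A lower share than that of F1 was found in 59.0% of them, a lower share than that of F2 in 20.7% and a lower share than that of F3 in 22.1%. F1 was near the middle of the EZH2 fragments, and F2 and F3 were on the polyA+ side of it.

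The host genes with the most similar division of reads over the 4 libraries were sought among 248 genes with at least 100 reads. KCNQ1OT1 had 0.293% of its 341 reads in the cytoplasmic library, 44.9% in the nuclear, 17.0% in the polyA+ and 37.8% in the polyA- library. The nearest was BRAF, a kinase gene with 2 fragments and 161 reads, at 1.24%, 44.7%, 17.4% and 36.6% in the same order, a Euclidean distance of 0.0157 between the shares. The next 4 were PRH1, PRH1-PRR4, PRR4 and TAS2R14, which overlap each other and host the same 2 fragments with 768 reads, at a distance of 0.0275. These likenesses are over 4 libraries, which share their depth and preparation across genes.

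Levels of the surrounding genes were taken by domain. Over 6 imprinted domains and a list of imprinted genes elsewhere, 26 of 76 entries (34.2%) had an FPKM of at least 1, where 21.8% of all entries did, and 15 were listed at 0. Their median FPKM was 0.245.

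In the domain of H19 and IGF2, 1 of 8 neighbours had an FPKM of at least 1, MRPL23, a mitochondrial ribosomal protein gene, at 11.8 (bounds 9.22 to 14.3). TH, which encodes tyrosine hydroxylase, had 0.0427 and the antisense IGF2-AS had 0.0345. INS and INS-IGF2, like IGF2, were listed at 0. In the domain of KCNQ1OT1, 5 of 12 neighbours had an FPKM of at least 1. NAP1L4, a histone chaperone gene, had 49.7 (bounds 44.9 to 54.6), CARS, a tRNA synthetase gene, 18.2 (11.5 to 24.9), and CD81, a tetraspanin gene, 10.2 (8.17 to 12.3). The other 2 were TSSC4 at 2.77 and OSBPL5 at 2.51. Thus 3 genes of this domain exceeded KCNQ1OT1 and CDKN1C several-fold, with bounds that did not overlap theirs.

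In the domain of MEG3, DLK1, a paternally expressed ligand-like membrane protein gene, had an FPKM of 2.41 (bounds 1.47 to 3.36). It was the only one of 6 with an FPKM of at least 1, and its bounds touched those of MEG3, whose upper bound was 1.47. MEG9 had 0.197, DIO3OS 0.107 and DIO3, which encodes a deiodinase, was listed at 0. In the domain of PEG10, 1 of 5 neighbours reached an FPKM of 1, CASD1 with 1.93 (bounds 1.08 to 2.79). TFPI2 had 0.181 and CALCR, the calcitonin receptor gene, 0.0513. In the domain of PEG3, none of 5 reached 1, the highest being ZNF264 with 0.619 (bounds 0.0622 to 1.18).

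In the domain of SNRPN, 3 of 11 neighbours had an FPKM of at least 1, although SNRPN itself was given as nearly 0. UBE3A, a ubiquitin ligase gene, had 31.7 (bounds 28.1 to 35.3) and MKRN3, a makorin ring finger gene, 8.85 (bounds 6.58 to 11.1). SNHG14, the long host RNA that extends from the SNRPN start across the snoRNA clusters and antisense to UBE3A, had 1.75 (bounds 0.782 to 2.72). Its bounds lay above the upper bound of SNRPN, 0.390. How reads of any bases that these entries share were divided between them was not tested, so that this is an order of listed values. NDN, which encodes necdin, had 0.565 (bounds 0.291 to 0.839).

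The imprinted genes elsewhere were higher, with 15 of 29 at an FPKM of at least 1 and a median of 1.81. GNAS, the G protein alpha subunit gene, had 42.3 (bounds 38.6 to 46.0), GRB10, an adaptor of the insulin receptor, 28.0 (24.2 to 31.7), and IGF2R, the receptor that clears IGF2, 16.7 (14.2 to 19.2). Of the 10 factors that maintain imprints, 8 had an FPKM of at least 1. DNMT1, the maintenance DNA methyltransferase, had 132 (bounds 122 to 142), TRIM28, a corepressor, 82.9 (76.3 to 89.6), and SMCHD1, a chromatin protein, 70.2 (64.2 to 76.2). CTCFL, a paralog of CTCF known mainly from the testis, had 26.5 (24.8 to 28.3) and CTCF, the insulator protein, 10.3 (9.33 to 11.3). ZFP57, the zinc finger protein that recognises methylated imprints, had 0.0488 (0 to 0.215), and NLRP7 was listed at 0.

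**Figure D5:**
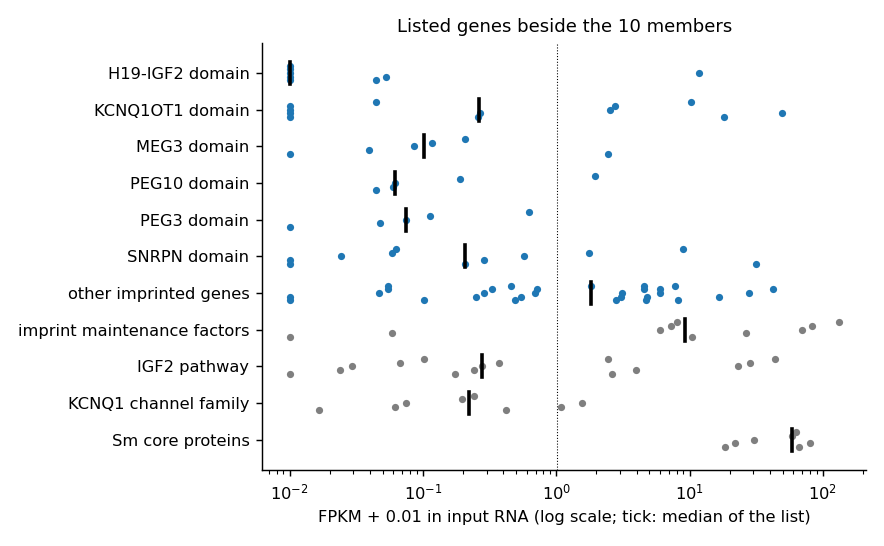
FPKM plus 0.01 in the input RNA (horizontal axis, log scale) of the listed genes beside the 10 themselves, 1 point per gene and 1 line per list, with imprinted lists in blue, other lists in grey and a black tick at the median. The imprinted domains have medians from 0 to 0.254, and imprinted genes elsewhere have a median of 1.81.

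Partners and relatives of the encoded proteins were also listed. In the pathway of IGF2, 6 of 15 genes had an FPKM of at least 1, with the 3 IGF2 mRNA-binding proteins at the top: IGF2BP3 had 43.8 (bounds 39.1 to 48.6), IGF2BP1 28.3 (26.2 to 30.3) and IGF2BP2 23.1 (19.8 to 26.4). Their bounds lay above the ligand IGF1 at 2.63 (bounds 1.57 to 3.69) and the receptor IGF1R at 2.42 (0.624 to 4.21). In the family of KCNQ1, 2 of 8 genes reached an FPKM of 1, the beta subunit KCNE3 with 1.55 (bounds 0.762 to 2.34) and the channel KCNQ5 with 1.08 (0 to 2.39). All 7 core Sm proteins, which form the ring that SmN can join, had an FPKM of at least 10, from SNRPB, the paralog of SNRPN, at 18.5 (16.2 to 20.8) to SNRPD1 at 79.4 (70.2 to 88.6). SNRPE had 66.5, SNRPG 63.1, SNRPD2 58.8 and SNRPD3 30.6.

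Among all 58293 entries, 339 were host genes of a fragment. Outside the 10 genes, 1 of the 76 entries of the domains and of the imprinted genes elsewhere hosted an EZH2 fragment, IGF2R. Its fragment (GRCh38 chr6:160037966-160038522, 557 bases, with no annotated exon of IGF2R) had 3 cytoplasmic, 33 nuclear, 8 polyA+ and 31 polyA- reads. It was called higher in nuclear RNA (ratio 11, exact 95% interval 3.45 to 56.1, adjusted p = 3.43e-07, exact binomial test). It was also called higher in polyA- RNA (ratio 3.88, 1.74 to 9.76, adjusted p = 0.000509, exact binomial test). Of all 900 fragments, 88% and 68% were called in these directions. Both calls use counts as deposited. The nuclear ratio of 11 lies below the ratios used in the 2 scalings, 13.3 and 22. The polyA- ratio lies above its own, 1.83 and 3.54. KCNQ5, a paralog of KCNQ1, hosted 2 fragments without annotated exons, with 23 polyA+ and 256 polyA- reads in one and 4 and 79 in the other. The polyA- share was 91.8% and 95.2% in the KCNQ5 fragments and 79.5% in the IGF2R fragment, beside 82.3%, 58.7% and 60.6% in F1, F2 and F3. These shares are given as a description, since the fragments were picked after their values were seen.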

How the data were processed

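RNA of wild-type K562 cells was measured in 5 of 33 samples of the series: the input RNA of the RIP-seq and 4 RNA fractions, 1 library each. The authors trimmed reads with TrimGalore, aligned them by STAR to GRCh38 using GENCODE 26, and dropped duplicates as well as alignments of mapping quality below 20. The authors deposited FPKM values with confidence bounds per gene (cuffdiff) and read counts per EZH2 RIP-seq fragment (featureCounts, not normalized). Strand settings and tool versions are not given in the sources used here. The other samples were not analysed here.

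Fragments were assigned to a gene if 50% or more of their bases lay in its span in the FPKM table. Reads of 2 libraries were compared by an exact binomial test, two-sided, of equal counts, with Benjamini-Hochberg adjustment over 900 fragments and a threshold of 0.05. Fisher's exact test compared fragments. Ratios carry exact 95% Clopper-Pearson intervals, and counts under 3 were set to a floor of 3 reads where stated. Intervals cover counting error only. The binomial and negative binomial tests and the ratio interval were tried on simulated counts of equal depth. Fisher's exact test was not. Alternatives were 2 scalings, a minimum of 10 reads, a threshold of 0.01, a negative binomial test with dispersion 0.1, other overlaps, other FPKM criteria, a floor of 1 read and a chi-square test. Of each list, the 3 highest genes and those with an FPKM of at least 10 were named, up to 5; TSSC4, OSBPL5, IGF1, IGF1R, NDN and the genes given as 0 or near 0 were named after their values were seen, as were KLF1, SNRPB and ZFP57. Of the genes this rule names, 1 is not reported here. Similar host genes were the 5 at the smallest Euclidean distance. The genes, lists and tests were chosen with earlier results of these data known. Sequence was read from GRCh38 and exons from GENCODE 44. Computation used scipy 1.17.1, numpy 2.4.6 and pandas 2.3.3 under Python 3.11.15, and plots used matplotlib 3.10.9.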

Additional observations from a re-analysis of the deposited data

How the results depend on the processing

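With 1 library per fraction no replicate could be left out, and no paired analysis was possible because the groups whose samples share replicate numbers were not analysed here. Setting libraries to their sums over the 900 fragments (a log2 shift of 3.74 for nuclear over cytoplasmic and 0.87 for polyA- over polyA+) lowered the nuclear calls among the 3 KCNQ1OT1 fragments from 3 to 1, and the summed polyA- to polyA+ ratio to 1.22, no longer past the threshold. Setting the median ratio equal (log2 shifts of 4.46 and 1.82) left 0 nuclear calls, turned the polyA- calls from 1 higher to 0 higher and 2 lower, and turned the summed polyA- to polyA+ ratio to 0.629. Over the 900 fragments, 792 were called higher and 1 lower in nuclear RNA as deposited, 126 and 71 with sums, and 23 and 102 with medians. For polyA- RNA these were 612 and 62, 407 and 129, and 174 and 252. The negative binomial test kept the ratio of 2.22 but not its call. An FPKM of at least 0.1 in place of 1 was met by 6 of the 10 genes and 44 of the 76 listed entries. A lower bound above 0 was met by 3 and 35. The minimum of 10 reads, the threshold of 0.01 and the overlap rules changed no call of a KCNQ1OT1 fragment. The threshold of 0.01 was run on those calls and not on the differences between fragments, of which F1 against F3 (adjusted p = 0.0411, Fisher's exact test) lies above it. The floor of 1 read (a nuclear to cytoplasmic ratio of 153) and the chi-square test (adjusted p = 0.00702 for F1 against F2) changed neither of the calls they were run on. The depth of the fraction libraries is unknown, so that the direction of the polyA comparison within KCNQ1OT1 is not fixed by these counts, whereas the difference between its fragments does not involve depth.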
